A study of Homo sapiens with 6 samples.

Results

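The genes described here are 7 small heat shock protein genes (HSPB1, HSPB2, HSPB3, HSPB6, HSPB7, HSPB8 and CRYAB) and BAG3, the cochaperone gene that works with HSPB8. They were taken by name, 8 of the 28181 genes listed, and all 8 passed the minimum for testing (a mean of 1 normalized count), as did 23040 genes in all. The choice was made with the difference between the groups already known, so the values of these 8 genes in that comparison are a description and carry no p-value. RNA was sequenced from UE7T-9, a line of human bone marrow mesenchymal stem cells immortalized with hTERT and the E7 gene of human papillomavirus. UE7T-9 SHC4 cells (genotype SHC4-OE, 3 libraries) overexpressed the adaptor gene SHC4 from a CMV promoter after infection with a lentivirus. UE7T-9 Cont cells (3 libraries) are titled Nontarget with genotype WT, and the study's methods give them a GFP lentivirus. The groups are written SHC4-OE and Cont below. Cells of both groups were selected with puromycin and grown in DMEM. The submitters describe the SHC4 cells as clones and call the libraries biological replicates, but whether these came from separate infections or clones is not stated, so tests measure only the spread between these libraries, which may be technical.

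Small heat shock proteins are chaperones that hold unfolding proteins without using ATP and pass them on to HSP70. HSPB1, CRYAB and HSPB8 are found in many cell types, whereas HSPB2, HSPB3, HSPB6 and HSPB7 are best known from heart and skeletal muscle. HSPB8 binds BAG3, which links it to HSP70 and the ubiquitin ligase STUB1 and sends damaged filament proteins such as filamin to autophagy. Several genes of the family are induced by heat shock factors, which bind repeated GAA and TTC units in promoters.

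The sequence before the transcription start is shown for the 4 members that differed most between the groups, since the heat shock factor units and the TATA box lie there. Windows of 250 bases before the RefSeq start (GRCh38.p14) were found for 6 of the 8 genes, HSPB2 and CRYAB having none. Runs are given 5′ to 3′ on the strand of the gene, and capitals mark TATAAA, GAANNTTC or TTCNNGAA. The HSPB3 run is chr5:54455449-54455600 on the plus strand and the HSPB6 run chr19:35757034-35757279 on the minus strand, both ending where exons annotated by GENCODE 29 begin. The windows of HSPB7 and HSPB8 lie wholly in an exon of a longer GENCODE 29 transcript, so 30 bases around the match are given, chr1:16018054-16018083 on the minus strand and chr12:119178832-119178861 on the plus strand.
HSPB7: gacagtcggcctTATAAAgcggccgcagtc
HSPB3: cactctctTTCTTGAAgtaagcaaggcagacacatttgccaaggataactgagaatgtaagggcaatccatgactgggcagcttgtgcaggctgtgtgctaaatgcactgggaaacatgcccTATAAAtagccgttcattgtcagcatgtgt
HSPB6: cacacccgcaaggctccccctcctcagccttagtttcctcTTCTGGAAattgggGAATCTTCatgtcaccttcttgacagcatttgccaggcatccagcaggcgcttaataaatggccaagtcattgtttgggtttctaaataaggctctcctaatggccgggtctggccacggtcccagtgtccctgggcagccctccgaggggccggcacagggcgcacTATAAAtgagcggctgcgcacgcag
HSPB8: tcatcacctccGAATATTCctgtgacagga

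TATAAA, searched with its reverse complement TTTATA, lay 28 to 23 bases before the RefSeq start of HSPB7. It lay 29 to 24 bases before that of HSPB6. In HSPB3 it occurred at 32 to 27 bases and again at 128 to 123 bases, the latter being the copy in the run above. The copy at 32 to 27 bases lies in the last 98 bases of the window, which GENCODE 29 annotates as exon. The copy at 128 to 123 bases lies before that exon. The windows of HSPB1, HSPB8 and BAG3 did not hold it. Of the 35116 windows of the same length over all genes, 10.7% held TATAAA in either direction. The 2-unit heat shock motifs GAANNTTC and TTCNNGAA each equal their own reverse complement. GAANNTTC was found in HSPB8 at 88 to 81 bases, in HSPB1 at 182 to 175 bases and in HSPB6 at 196 to 189 bases. TTCNNGAA was found in HSPB6 at 210 to 203 bases and in HSPB3 at 242 to 235 bases. Either motif was present in 11.6% of all windows, and the windows of HSPB7 and BAG3 held neither. These matches describe letters only and were not tested as binding sites.

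The overexpressed gene was read first. The normalized count (reads divided by a size factor for each library) of SHC4 was 56.5, 157 and 130 in Cont and 134870, 119166 and 155006 in SHC4-OE, as the labels say. Recovered depth was 18144993 to 27721397 reads per library, and 3 reads, the floor used here, equalled a normalized count of 2.50 to 3.53. Cont replicate 1 had a higher correlation across genes with each SHC4-OE library than with Cont replicate 2 or 3. Its Pearson's r was 0.975, 0.969 and 0.968 with SHC4-OE replicates 1, 2 and 3. With Cont replicates 2 and 3 it was 0.967 and 0.962, so values without Cont replicate 1 are given below. Among markers of mesenchymal stem cells, all 6 of 6 were tested, and their summed normalized counts were 54084 to 59849.8 in Cont and 61226 to 69978 in SHC4-OE. Blood cell markers summed to 145 to 164 and 123 to 157, and endothelial markers to 58.0 to 78.9 and 49.2 to 96.7. The highest of each per kilobase, CD14 and VWF, had log2 fold changes of -0.25 (SE 0.24) and -0.03 (SE 0.33). Of 4 blood cell markers tested, 0 were higher and 4 lower, and of 3 endothelial markers 1 was higher and 2 lower. The largest changes were in genes with low counts. PTPRC had -1.46 (SE 0.68), TEK -1.46 (SE 0.72) and PECAM1 1.12 (SE 0.56), with normalized counts of at most 6.82, 10.8 and 38.4. In bulk RNA, more cells of a type and more RNA per cell cannot be told apart.

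Differences are fitted log2 fold changes of SHC4-OE over Cont on the scale log2(normalized count + 1), from limma over all 23040 genes. Of the 8 genes, 6 had a higher and 2 a lower fitted level in SHC4-OE. The median log2 fold change of the 8 was 0.99, against -0.00 for all genes tested. In 4 genes (HSPB7, CRYAB, HSPB3 and HSPB6) every SHC4-OE library lay above every Cont library, which was so for 9.13% of all genes. In HSPB8 and BAG3 every SHC4-OE library lay below, as in 10.2% of all genes. In HSPB1 and HSPB2 the groups overlapped. An absolute log2 fold change above 1 was seen in 5 of the 8 genes and in 11.9% of all genes. A gene was called where its log2 fold change lay beyond 1 in either direction and its p, adjusted by Benjamini-Hochberg, was under 0.05. limma called 1 member, HSPB7, higher and 0 lower, where 0.0521% of all genes were called higher, 0.00868% lower and 0.0608% in either direction. DESeq2 on the recovered reads called 3 members higher (HSPB7, CRYAB and HSPB3) and 1 lower (HSPB8), where 1.05% of genes were called higher, 1.15% lower and 2.2% in either direction. edgeR called 0 of the 7 members it tested, where 0.0568% of genes were called higher, 0.00631% lower and 0.0631% in either direction. As the genes were chosen on this comparison, nothing is read from these shares.

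**Figure D1:**
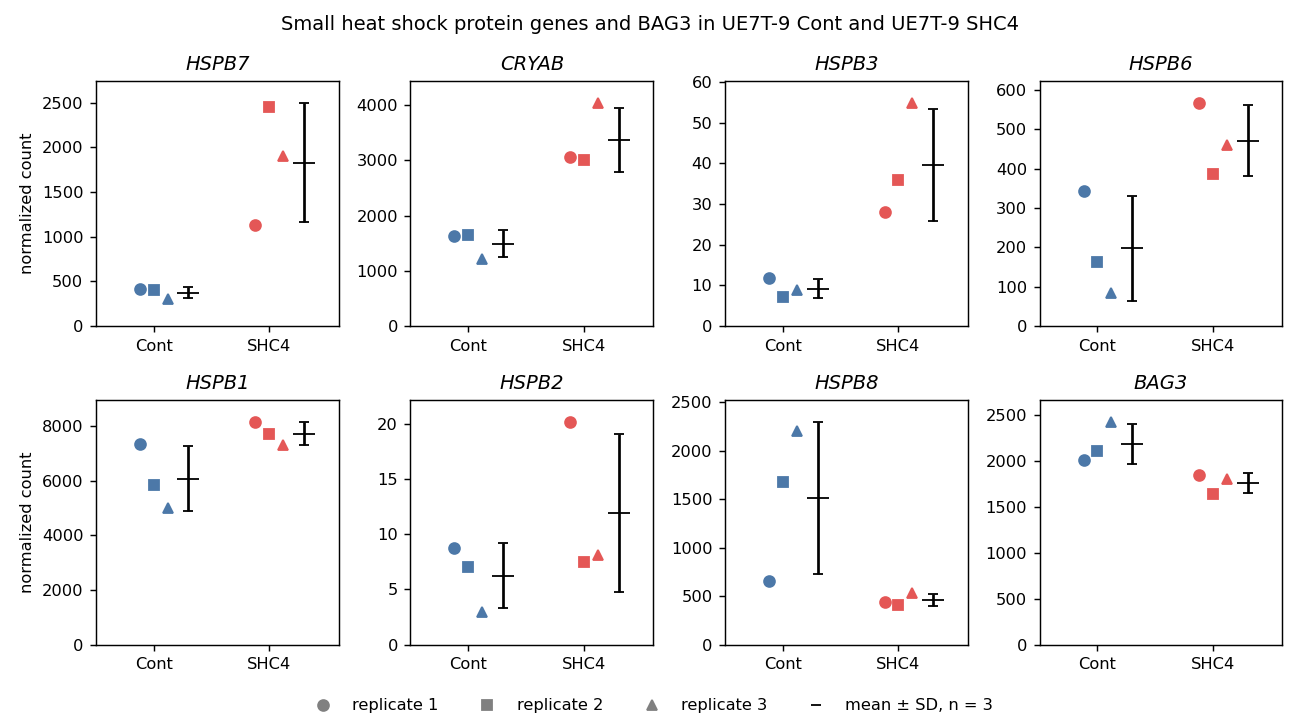
Normalized count (linear axis from 0, a scale for each panel) of the 8 genes in Cont (blue) and SHC4-OE (red, SHC4 on the axes of all plots), with a symbol for each replicate and the mean ± SD (n = 3). HSPB7, CRYAB, HSPB3 and HSPB6 lie higher in all 3 SHC4-OE libraries, HSPB8 and BAG3 lie lower, and HSPB1 and HSPB2 overlap.

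HSPB7 is a small heat shock protein of heart and skeletal muscle that keeps filament proteins from clumping. The gene (ENSG00000173641) lies on the minus strand of chromosome 1 from 16014028 to 16019594 (GENCODE 29, GRCh38), with 7 transcripts. Its normalized count was 417, 404 and 299 in the 3 Cont libraries and 1128, 2452 and 1899 in the 3 SHC4-OE libraries. The lowest SHC4-OE library was thus well above the highest Cont library, and the SHC4-OE libraries spread widely. The means were 373 ± 64.7 and 1826 ± 665 (SD, n = 3 each), a 4.89-fold difference. The log2 fold change was 2.23 (SE 0.26), the 80th highest of the 23040 genes. It rested on 304 to 428 reads per Cont library and 1283 to 2946 reads per SHC4-OE library. limma's call of HSPB7 was lost in 4 of 6 fits when each library was dropped in turn, with log2 fold changes of 1.98 to 2.54. The nearest tested genes, ZBTB17 and FAM131C, had overlapping groups and log2 fold changes of -0.22 (SE 0.14) and 0.22 (SE 0.72).

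CRYAB encodes αB-crystallin, a lens and muscle chaperone that binds desmin filaments. Its normalized count was 1625, 1641 and 1204 in Cont and 3066, 3012 and 4031 in SHC4-OE. The groups did not overlap. The means were 1490.05 ± 248 and 3369.8 ± 574 (SD, n = 3 each), 2.26-fold apart, with a log2 fold change of 1.18 (SE 0.17). HSPB2, a partner of HSPB3 in muscle, lies on the plus strand of chromosome 11 from 111912242 to 111914093, wholly within the CRYAB gene (minus strand, 111908565 to 111923722). It shares 626 exon bases with CRYAB, 46.9% of its own and 20.6% of those of CRYAB. HSPB2 had normalized counts of 8.77, 7.06 and 2.95 in Cont and 20.2, 7.49 and 8.15 in SHC4-OE. The groups overlapped, and only SHC4-OE replicate 1 stood above the rest. These values rested on 3 to 23 reads per library, and the log2 fold change was 0.80 (SE 0.58), or 0.41 (SE 0.59) without Cont replicate 3 and 0.38 (SE 0.63) without SHC4-OE replicate 1. As the strand setting of the counting is not given in the sources used here, reads of HSPB2 and CRYAB cannot be told apart where their exons overlap. HSPB2 also shares 719 exon bases with the readthrough gene HSPB2-C11orf52 on its own strand, and CRYAB shares 548 with it. HSPB2-C11orf52 was not among the genes listed, so no count of it is given.

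HSPB3 is a muscle small heat shock protein, encoded by a single exon on chromosome 5 (plus strand, 54455601 to 54456384). Its normalized count was 11.7, 7.06 and 8.85 in Cont and 28.1, 35.8 and 54.7 in SHC4-OE. All SHC4-OE libraries were higher, from a low base of 6 to 12 reads per Cont library against 32 to 47 reads. The means were 9.20 ± 2.34 and 39.5 ± 13.7 (SD, n = 3 each), and the log2 fold change was 1.96 (SE 0.41). HSPB6 (HSP20), a small heat shock protein of smooth and heart muscle that is phosphorylated by cyclic nucleotide-dependent kinases, lies on chromosome 19 (minus strand, 35754569 to 35758079). It had normalized counts of 344, 164 and 83.6 in Cont and 566, 385 and 461 in SHC4-OE. The groups did not overlap, but Cont replicate 1 came close to the lowest SHC4-OE library. The means were 197 ± 133 and 471 ± 90.7 (SD, n = 3 each), with a log2 fold change of 1.47 (SE 0.42), or 1.98 (SE 0.28) without Cont replicate 1 and 0.97 (SE 0.30) without Cont replicate 3. HSPB6 shares 657 exon bases (38.2% of its own) with the antisense gene AC002398.2, so its reads are uncertain there. AC002398.2 was not among the genes listed, so no count of it is given.

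HSPB1 (HSP27), the widely expressed small heat shock protein that guards actin filaments, lies on chromosome 7 (plus strand, 76302544 to 76304295). Its normalized count was 7356, 5865 and 4997 in Cont and 8168, 7704 and 7319.96 in SHC4-OE. Cont replicate 1 lay above the lowest SHC4-OE library, so the groups overlapped. The log2 fold change was 0.37 (SE 0.17), or 0.51 (SE 0.14) without that library and 0.23 (SE 0.17) without Cont replicate 3. HSPB1P1, a pseudogene copy of HSPB1, had normalized counts of 0 to 2.64, at or below the floor of 3 reads in every library.

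HSPB8 (HSP22), the partner of BAG3, lies on chromosome 12 (plus strand, 119178642 to 119221131). Its fitted level was lower in SHC4-OE, as was that of BAG3, while the other 6 genes had higher fitted levels. Its normalized count was 653, 1679 and 2201 in Cont and 441, 408 and 529.8 in SHC4-OE. The SHC4-OE libraries were close together and all lower, while Cont replicate 1 lay far below the other Cont libraries. The means were 1511 ± 787 and 459.6 ± 63.0 (SD, n = 3 each), a 3.29-fold lower mean, and the log2 fold change was -1.55 (SE 0.37). Without Cont replicate 1 it was -2.07 (SE 0.17), and without Cont replicate 3 it was -1.20 (SE 0.34). BAG3 lies on chromosome 10 (plus strand, 119651370 to 119677819) and had normalized counts of 2006, 2112 and 2425 in Cont and 1845, 1639 and 1799 in SHC4-OE. The groups did not overlap but lay close together. The log2 fold change of BAG3 was -0.31 (SE 0.12), and no fit called it. Without Cont replicate 1 the log2 fold change was 2.32 for HSPB7, 2.13 for HSPB3, 1.25 for CRYAB, 1.07 for HSPB2 and -0.36 for BAG3.

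**Figure D2:**
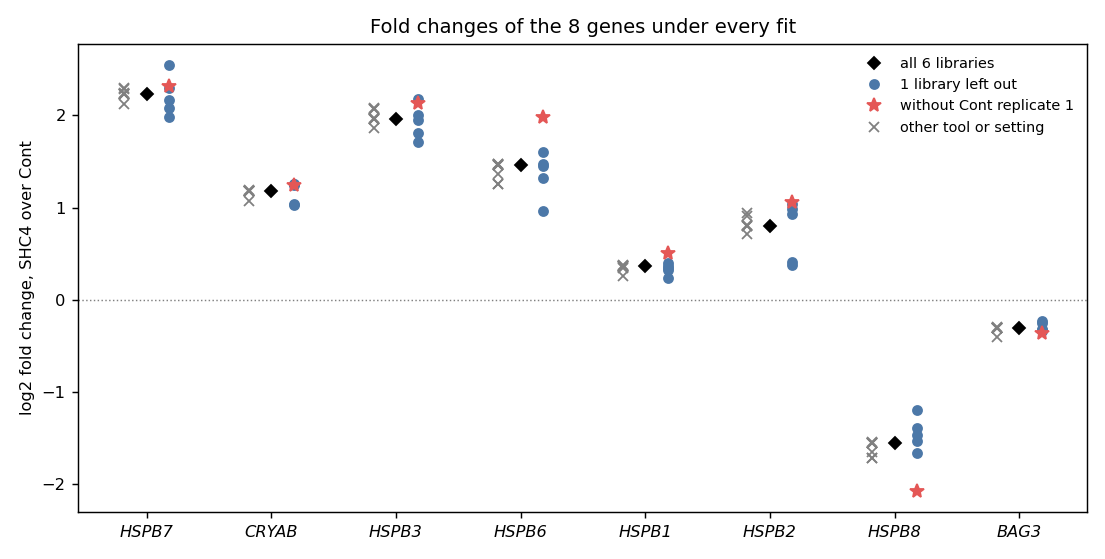
Log2 fold change of each gene, SHC4-OE over Cont, with all 6 libraries (diamond), with 1 library left out (circles, a star where Cont replicate 1 is left out) and under other tools or settings (crosses). No gene changed sign, and HSPB8 moved from -1.55 to -2.07 and HSPB6 from 1.47 to 1.98 without Cont replicate 1, while without Cont replicate 3 they were -1.20 and 0.97.

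Levels of different genes were compared as normalized counts per kilobase of annotated exon, a length that joins all transcripts of a gene. The order of the genes and their shares depend on this length, and other lengths were not tried. For CRYAB it was 3034 bases, while its transcript with the longest coding sequence has 1119. For HSPB8 these lengths were 2860 and 2152, and for HSPB7 3910 and 2415. In Cont the order of means was HSPB1 (3716), BAG3 (794), HSPB8 (528), CRYAB (491), HSPB6 (115), HSPB7 (95.5), HSPB3 (11.7) and HSPB2 (4.69). The libraries of BAG3 and HSPB8, of HSPB8 and CRYAB and of HSPB6 and HSPB7 overlapped in that order. In SHC4-OE it was HSPB1 (4731), CRYAB (1111), BAG3 (641), HSPB7 (467), HSPB6 (274), HSPB8 (161), HSPB3 (50.4) and HSPB2 (8.95). There BAG3 overlapped HSPB7, and HSPB7 overlapped HSPB6. HSPB8 was thus above HSPB7 in each Cont library and below it in each SHC4-OE library. The ratio of HSPB7 to HSPB8 per kilobase was 0.467, 0.176 and 0.0994 in Cont and 1.87, 4.40 and 2.62 in SHC4-OE. That of CRYAB to HSPB8 was 2.35, 0.921 and 0.516 against 6.55, 6.96 and 7.17. Both ratios were higher in all SHC4-OE libraries, and Cont replicate 1 was the nearest to them. The ratio of HSPB8 to BAG3 was 0.313, 0.763 and 0.872 in Cont and 0.230, 0.239 and 0.283 in SHC4-OE.

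The per-kilobase sum of the 7 small heat shock protein genes was 5594, 4930 and 4363 in Cont and 6832, 6752 and 6823 in SHC4-OE. HSPB1 made up 70.1% to 80.5% of the sum in Cont and 65.7% to 73.2% in SHC4-OE, ranges that overlapped. The share of HSPB7 was 1.75% to 2.09% in Cont and 4.22% to 9.29% in SHC4-OE. The share of CRYAB was 9.10% to 11.0% and 14.7% to 19.5%. HSPB8 held 4.08%, 11.9% and 17.6% in Cont and 2.11% to 2.72% in SHC4-OE. With the joined exon lengths used, the largest share after HSPB1 was that of HSPB8 in Cont replicates 2 and 3. It was that of CRYAB in Cont replicate 1 and in every SHC4-OE library, an order that may differ with other lengths.

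**Figure D3:**
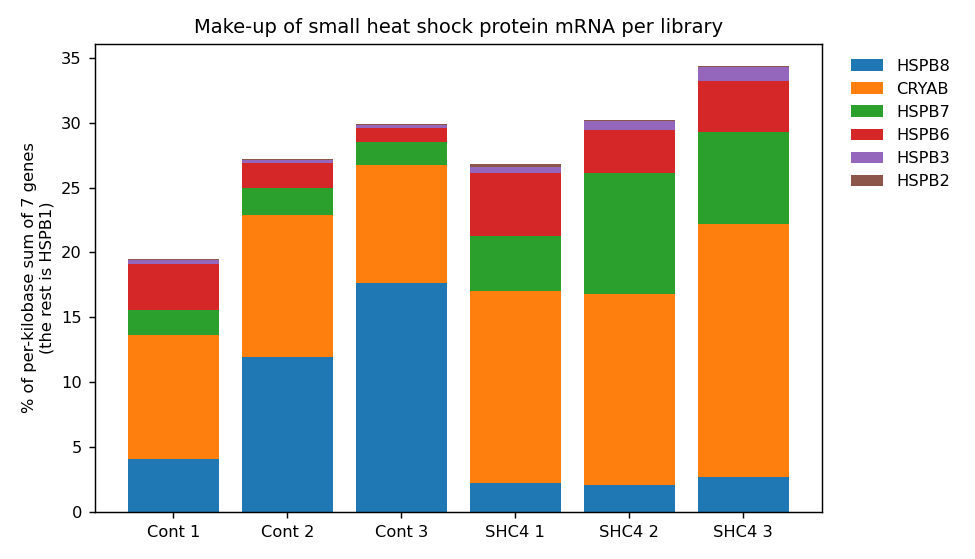
Share (%) of the per-kilobase sum of the 7 small heat shock protein genes held by each gene other than HSPB1, stacked for each library, with HSPB1 making up the rest to the full sum. HSPB8 (blue) is 17.6% in Cont replicate 3 and 2.11% to 2.72% in SHC4-OE, while HSPB7 (green) is 1.75% to 2.09% and 4.22% to 9.29%.

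Other genes of the chaperone network, muscle filament genes and cell type markers were taken by their roles, 97 tested genes in all. These lists too were drawn up with earlier results of these data known. Their counts and p-values are therefore a description and not an independent test. limma called 0 of the 97, and 15 (15.5%) had an unadjusted p below 0.05, against 14.4% of all genes tested. DESeq2 called 2, the cochaperone DNAJA4 and the stromal marker PDGFRB, and edgeR 0. Of 15 HSP70 genes, 4 had a higher and 11 a lower fitted level, with a median log2 fold change of -0.23. HSPA8, the constitutive HSP70 and the highest of them per kilobase, had -0.08 (SE 0.20). Of 15 genes listed under HSP90, HSP110, chaperonins and their cochaperones, 1 was higher and 14 lower, with a median of -0.18. The 15 include SERPINH1, a chaperone outside these groups. HSP90AB1, the highest of the 15 per kilobase, had -0.27 (SE 0.18) with overlapping groups. The largest change was that of FKBP5, at -0.71 (SE 0.18). Every SHC4-OE library of FKBP5 lay below every Cont library, but neither limma nor DESeq2 called it. Of 16 DNAJ cochaperones, which bring clients to HSP70, 2 were higher and 14 lower, with a median of -0.12, and DNAJA1, the highest, had -0.29 (SE 0.17). DNAJA4 had normalized counts of 44.8, 70.6 and 95.4 in Cont and 21.1, 9.16 and 8.15 in SHC4-OE. It was lower in all SHC4-OE libraries, with a log2 fold change of -2.42 (SE 0.45, limma, adjusted p = 0.102), and DESeq2 called it (adjusted p = 0.000256).

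Of 5 heat shock factors and regulators tested, 1 was higher and 4 lower, with a median of -0.03. HSF1, the main heat shock factor and the highest per kilobase, had -0.03 (SE 0.14). The higher one was HSF4, with normalized counts of 129, 128 and 152 in Cont and 246, 280 and 205 in SHC4-OE. Its groups did not overlap and its log2 fold change was 0.82 (SE 0.18), but neither limma nor DESeq2 called it. Without Cont replicate 1 the split of the 5 genes was 4 higher and 1 lower, and with TMM normalization it was 2 and 3. Of the 5 other BAG genes, 3 were higher and 2 lower (2 and 3 with library size scaling), with BAG6, the highest, at -0.03 (SE 0.12). Of 15 genes of chaperone-assisted selective autophagy, the route served by HSPB8 and BAG3, 7 were higher and 8 lower (4 and 11 with library size scaling). FLNA, the filamin with the highest level, had 0.41 (SE 0.31). The filamin FLNC, a client of BAG3, had normalized counts of 8679.5, 10635 and 14999.8 in Cont and 8959, 6583 and 6103 in SHC4-OE, with overlapping groups and a log2 fold change of -0.65 (SE 0.23). Of the 4 genes listed as other small heat shock protein genes, CRYAA and ODF1 were absent from the data. HSPB9 had normalized counts of 0 to 3.49, at or below the floor of 3 reads in every library. HSPB11, listed for its name and not taken as a family comparison, had -0.14 (SE 0.12).

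**Figure D4:**
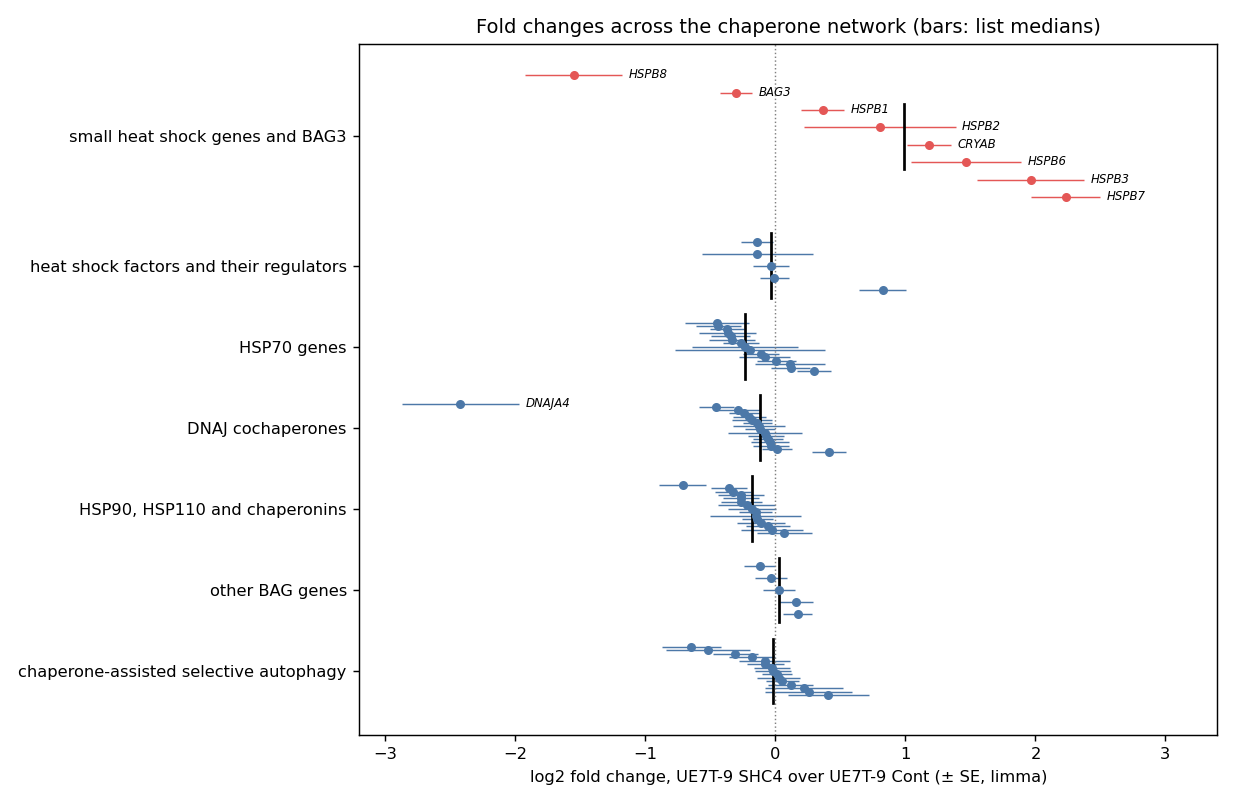
Log2 fold change (± SE, limma) of SHC4-OE over Cont for each gene of the 8 (red) and of 6 lists of the chaperone network (blue), with the median of each list as a black bar. The median of the 8 is 0.99, those of the lists lie between -0.23 and 0.03, and DNAJA4 is the low point among the DNAJ genes.

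Since HSPB7, HSPB3, HSPB2 and CRYAB are known from muscle, muscle genes were read beside them. Of 17 sarcomere and muscle filament genes, 14 were tested, 5 with a higher and 9 with a lower fitted level, a median of -0.42 and 0 called. Their summed normalized counts were 8746 to 15125 in Cont and 6169 to 9014 in SHC4-OE, most of it FLNC. Without FLNC, the other 15 listed genes summed to 66.3, 117 and 125 in Cont and 55.4, 81.6 and 66.4 in SHC4-OE. TTN, the giant filament protein of the sarcomere, reached the highest single value of these, 29.4 in Cont replicate 2, with a log2 fold change of -2.48 (SE 0.86). ACTC1, MB and TNNC1 had log2 fold changes of 1.15 (SE 0.70), 1.11 (SE 0.72) and 1.01 (SE 0.69), with normalized counts of at most 13.97, 5.27 and 7.87. On the lower side, ACTN2, CSRP3 and LDB3 had -1.56 (SE 0.95), -1.43 (SE 0.64) and -0.91 (SE 0.43), with counts of at most 25.6, 4.92 and 22.6. In 3 of the 14 (TTN, CSRP3 and LDB3) every SHC4-OE library lay below every Cont library, against 10.2% of all genes. In 0 of the 14 every SHC4-OE library lay above, against 9.13%. DES, ACTA1 and MYH7 reached at most 5.85, 2.50 and 1.18. Of the 6 mesenchymal stem cell markers, 5 had a higher and 1 a lower fitted level, with a median of 0.19. The lower one was NT5E, the highest per kilobase, at -0.36 (SE 0.23). THY1 had 1.15 (SE 0.38), but its groups overlapped. Its normalized counts were 7742, 2940 and 2286 in Cont and 7845, 9570 and 7512 in SHC4-OE. ALCAM, CD44 and ENG lay between 0.15 and 0.21. PDGFRB, a receptor of stromal cells, had normalized counts of 4122, 1487 and 1678 in Cont and 6635, 5281 and 5178 in SHC4-OE. It was higher in all SHC4-OE libraries, with a log2 fold change of 1.38 (SE 0.33, limma, adjusted p = 0.162), and DESeq2 called it (adjusted p = 0.0171). Cont replicate 1 was again the nearest to SHC4-OE, as for HSPB6 and HSPB8. The part of these markers in the members' values was not tested.

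Across the 6 libraries, the members' log2(normalized count + 1) followed that of HSPB7 to different degrees. Pearson's r with HSPB7 was 0.94 for HSPB3, 0.94 for CRYAB, 0.76 for HSPB6, 0.74 for HSPB1 and 0.45 for HSPB2. It was -0.84 for HSPB8 and -0.93 for BAG3. These values rest on 6 points that share the split into groups, and are a description. Of the 11778 other protein-coding genes that averaged 50 normalized counts or more, 165 had an r above 0.95. The 5 closest to HSPB7 were TOMM34, a cochaperone of HSP70 and HSP90 (r = 0.999), PLXNB1, a semaphorin receptor (0.997), HLCS, the biotin ligase (0.996), ACADS, a fatty acid dehydrogenase (0.994), and MYO1E, a myosin (0.993). PLXNB1 had normalized counts of 922, 939 and 828 in Cont and 1415, 2149 and 1787 in SHC4-OE, in the same order of SHC4-OE libraries as HSPB7. All 5 genes shared that order, having been picked for their likeness to HSPB7. Their log2 fold changes were smaller than that of HSPB7, from 0.34 in TOMM34 to 0.97 in PLXNB1.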

How the data were processed

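Libraries (NEBNext Ultra RNA kit) of both groups, 3 each, were grouped by the labels. The authors deposited a signal per gene, the count divided by a size factor for the library. The submitters' processing notes name HISAT2 2.0.5, featureCounts 1.5.0-p3 and DESeq2. The build, annotation and strand setting are not given in the sources used here. All values (100%) were whole multiples of 1 read (tolerance 0.01 reads), so reads were recovered.

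Genes with a mean of at least 1 were fitted with limma 3.58.1 (eBayes with trend, R 4.3.3) on log2(value + 1), which understates changes of low genes. Calls needed a log2 fold change beyond 1 in size and p under 0.05 after adjustment by Benjamini-Hochberg. Alternatives were DESeq2 1.42.0 and edgeR 4.0.16 on recovered reads, library size and TMM scaling, pseudocount 0.1, no filter, a mean of at least 10, no fold threshold, a replicate block and leaving out each library. limma, edgeR and DESeq2 were also run on simulated counts. These held no unlike library such as Cont replicate 1, so that run cannot show how the tests behave on these data.

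Members and lists were chosen with earlier results of these data known. Named genes are the 8 members, genes of each list called by limma or DESeq2 or highest per kilobase, the 5 genes most like HSPB7, neighbours, overlapping genes and SHC4. Not every gene under this rule is reported here. HSPB9, PTPRC, TEK, PECAM1, TTN, ACTN2, CSRP3, LDB3, ACTC1, MB, TNNC1, DES, ACTA1 and MYH7 were named after their values were seen. So were HSF4, FKBP5, SERPINH1, THY1, ALCAM, CD44, ENG and, in the autophagy list, FLNC. Positions are from GENCODE 29 and promoters from RefSeq. With 3 libraries per group, the spread is known only roughly, and the depth behind low genes covers counting error only.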

Additional observations from a re-analysis of the deposited data

How the results depend on the processing

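No direction of a member reversed under the 14 alternative fits, of which 12 gave a value for HSPB2 (edgeR and a mean of at least 10 left it out). The log2 fold change of HSPB7 was 2.29 with edgeR and 2.23 with a mean of at least 10, neither of them called, and 1.98 to 2.54 with a library left out, called only without Cont replicate 1 or SHC4-OE replicate 1. The causes of these lost calls were not tested. Of the 8 members, 1 was called in the main fit, 4 with DESeq2, 0 with edgeR, 2 each with library size scaling, TMM or no filter, 0 with a mean of at least 10, and 0 to 5 with a library left out, the 5 being without Cont replicate 1. Pathway genes called were 0, but 2 with DESeq2 and 0 to 4 with a library left out, the 4 (ACTN2, PDGFRB, DNAJA4 and THY1) again without Cont replicate 1. Over all genes, 12 were called higher and 2 lower. The higher count was 170 with DESeq2, 19 with library size scaling, 20 with TMM and 31 with no filter, and the lower count 185, 5, 4 and 9, with 1 for edgeR and 1 for pseudocount 0.1. With a library left out they ranged from 1 to 367 and from 0 to 339, the highest without Cont replicate 1. Library size scaling moved the median log2 fold change of all genes to -0.10. With the replicate block, 25 genes were called higher and 14 lower, and HSPB7 stayed called at 2.23. The numbers were not taken as a pairing: deviations of same-numbered libraries correlated at 0.148, 0.0130 and -0.00696 over all tested genes and at 0.409, 0.146 and 0.149 over genes with a mean of at least 50, where Cont replicate 2 correlated best with SHC4-OE replicate 3 (0.517). Depth limits HSPB2 and HSPB3, which had as few as 3 and 6 reads in a library.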

Other observations

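Next to the HSPB2 and CRYAB pair on chromosome 11, DIXDC1, a gene of Wnt signalling, had normalized counts of 491, 374 and 380 in Cont and 523, 623 and 672 in SHC4-OE. All SHC4-OE libraries were higher, with a log2 fold change of 0.55 (SE 0.16), but limma did not call it. C11orf1, the nearest tested gene on the other side, had overlapping groups and a log2 fold change of -0.09 (SE 0.18).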
